A study of Mus musculus with 70 samples.

Results

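miR-455 is an intronic microRNA (miRNA) with both of its mature arms, miR-455-3p and miR-455-5p, in the small RNA libraries examined here. The members were chosen by name, because miR-455 was known from these same data to rise in microglia as they mature, and they are 2 of the 1882 features in the count table. They are listed there as mmu-miR-455-3p, with a mean of 1580 CPM (counts scaled to a library total of 1000000) in 8-week microglia, and mmu-miR-455-5p, with a mean of 297 CPM. The libraries came from whole brains of wild-type C57Bl/6 mice of both sexes, aged 8 weeks or taken at P15 or P6 (P, postnatal day). In every case, CD45+ cells captured on antibody-coated dishes (immunopanning) are called microglia here, and the CD45- cells of the same brain are called bulk cells, a mixture of mainly neurons, oligodendrocytes and astrocytes. CD45 is also carried by other leukocytes, so the captured fraction can hold monocytes and macrophages as well. After 1 mouse was set aside, 34 mice gave 68 libraries, 12 mice each for the 8-week and P15 groups, with 6 of each sex, and 10 for P6, of which 4 were female. The labels gave no technical batch.

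A miRNA gene is transcribed into a hairpin precursor, from which Dicer releases a short duplex of a 5p and a 3p strand. One strand is usually retained in an Argonaute protein, where its seed, the bases just inside its 5′ end, directs it to matching sites in messenger RNAs. Both arms therefore start from one transcript, and their ratio depends on which strand is kept and on how stable each is. miR-455 is best known from cartilage, where it is expressed together with its collagen host gene Col27a1.

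The mature sequences are shown because every level reported below is a count of reads matched to one of them. They were taken from RefSeq on GRCm38.p6, where both arms were found, and capitals mark the seed (bases 2 to 8).
miR-455-5p: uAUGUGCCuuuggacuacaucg
miR-455-3p: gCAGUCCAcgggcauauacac
Both lie on the plus strand of chromosome 4, the 5p arm of 22 bases at chr4:63256867-63256888 and the 3p arm of 21 bases at chr4:63256904-63256924. The Mir455 gene (63256851 to 63256932) lies within intron 10 of the protein-coding transcript Col27a1-201, on the strand of Col27a1 and 42847 bases from the start of that gene. The messenger RNA of Col27a1 was not analysed here.

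The arms have different seeds. Among 1679 mature mouse miRNAs of the reference, none other had the seed of miR-455-3p. The seed of miR-455-5p occurred in 1 other, which is shown to compare the bases outside the seed.
miR-5129-3p: aAUGUGCCugugcaucucuucc
miR-5129-3p had at most 19 counts in any library and means of 2.10, 1.97 and 0.927 CPM in P6, P15 and 8-week microglia, so it was at or near the lowest level that could be measured. The longest run of bases that either arm shared with another mature miRNA was 8, and 0 shared a run of 18 bases, while the authors filtered reads by a length above 18. Thus no other mature miRNA of the reference shared a long unbroken run with either arm, while copies with scattered mismatches were not searched for.

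Levels are given in CPM and so are relative to the library total. Library totals ranged from 1678034 to 4066435 in P6 microglia, from 3220957 to 5420071 in P15 microglia and from 4244639 to 5982922 in 8-week microglia. In bulk cells they ranged from 5979569 to 8747394, from 2795957 to 6763115 and from 3141193 to 6447373, so every P6 bulk library was deeper than every P6 microglial one. Both arms lay above the floor of 3 counts, which stood for 0.343 to 1.79 CPM depending on depth, in every library. The fractions were compared by listed markers. miR-142a-3p, a miRNA of blood-forming lineages, averaged 14366, 19685 and 12709 CPM in microglia at the 3 ages and 108.1, 288.4 and 182.6 CPM in bulk cells. Most other listed myeloid miRNAs were also higher in microglia, but miR-150-5p at each age and miR-155-5p at P6 and P15 were higher in bulk cells. Microglial libraries held markers of other cells too. miR-9-5p, a miRNA of astrocytes and neural progenitors, averaged 144173 CPM in P6 microglia and 266886 CPM in P6 bulk cells.

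In microglia, miR-455-3p rose at both steps of maturation. At P6 the lowest, median and highest library held 182, 205 and 335 CPM, with a mean of 230.7 ± 48.3 (SD, n = 10), from 426 to 866 counts. At P15 they held 369, 718 and 1111 CPM, with a mean of 735 ± 189 (SD, n = 12), and at 8 weeks 1240, 1598 and 1814 CPM, with a mean of 1580 ± 185 (SD, n = 12). No P15 library was as low as any P6 library, and no 8-week library as low as any P15 library. The mean level was 3.19-fold higher at P15 than at P6 and 2.15-fold higher at 8 weeks than at P15, a 6.85-fold difference over the whole interval. By mean CPM the arm moved from place 176 among the 1882 features at P6 to 102 at P15 and 65 at 8 weeks, where it took 0.158% of all microglial counts. In fractions of mixed cells, fewer cells of a type and less RNA per cell cannot be told apart.

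miR-455-5p, the less abundant arm, had its larger rise in CPM over the first step. Its lowest, median and highest P6 libraries held 44.4, 60.3 and 97.6 CPM, with a mean of 65.7 ± 18.6 (SD, n = 10), from 90 to 252 counts. At P15 they held 136, 206 and 273 CPM (mean 203 ± 43.9, SD, n = 12), and at 8 weeks 192, 312 and 338 CPM (mean 297 ± 45.8, SD, n = 12). The P6 and P15 libraries did not overlap, whereas those of P15 and 8 weeks did. The means were 3.09-fold apart between P6 and P15 and 1.46-fold apart between P15 and 8 weeks, and the place in the order of abundance moved from 284 to 178 to 138.

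**Figure D1:**
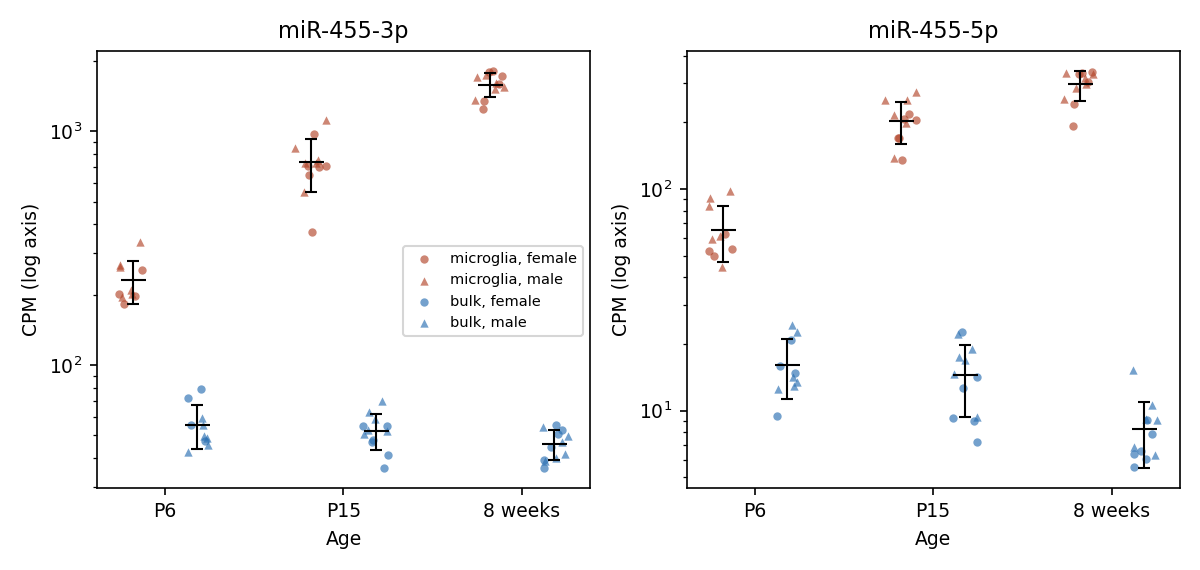
CPM of miR-455-3p (left) and miR-455-5p (right) on log axes at each age, 1 point per library, in microglia and bulk cells of female (circles) and male (triangles) mice, with the mean and SD as black bars. The microglial means of miR-455-3p climb from 230.7 to 1580 CPM while those of bulk cells stay between 45.9 and 55.6 CPM.

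Since miR-455 was picked for this rise, the microglial age changes are described without a test. In a limma-voom fit of the 1072 features that reached 1 CPM in 5 or more libraries, scaled by TMM (a factor that offsets shifts in library composition), the log2 fold change of miR-455-3p was 1.81 ± 0.10 (SE) from P6 to P15, 1.47 ± 0.09 from P15 to 8 weeks and 3.28 ± 0.10 from P6 to 8 weeks. The values for miR-455-5p were 1.81 ± 0.13, 0.89 ± 0.10 and 2.70 ± 0.13 (SE). Ordered by the change from P6 to 8 weeks, miR-455-3p was 7th highest and miR-455-5p 16th highest of the 1072. The median of all features was -0.17 on the same scale. Among all features, 7.18% were called higher at 8 weeks than at P6 (TREAT test against an absolute log2 fold change of 1, FDR 0.05), 0.746% higher at P15 than at P6 and 1.77% higher at 8 weeks than at P15. The values of both arms lay past the threshold of 1 in each comparison except miR-455-5p from P15 to 8 weeks, which lay just below it. For that step the value relative to miR-142a-3p of the same library was 1.16, against 1.18 from P6 to P15, so the balance of the steps depends on the reference.

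A rise in CPM without any overlap between libraries at either step was rare. It was seen in 0.373% of the features tested, namely miR-455-3p, miR-29a-3p, miR-10a-5p and miR-664-3p. miR-29a-3p was far more abundant than miR-455-3p, with means of 5443, 14793 and 34453 CPM at P6, P15 and 8 weeks. miR-10a-5p had means of 31.9, 96.5 and 241 CPM, and miR-664-3p of 70.4, 128 and 258 CPM. For single steps without overlap the share of features was 0.84% from P6 to P15 and 1.68% from P15 to 8 weeks, and for P6 against 8 weeks it was 5.22%.

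In bulk cells, miR-455-3p stood at a low level that did not change past the threshold at any age. The lowest, median and highest bulk libraries held 42.7, 52.5 and 78.9 CPM at P6 (mean 55.6 ± 11.8, SD, n = 10), 36.4, 52.4 and 70.0 CPM at P15 (mean 52.4 ± 9.06, SD, n = 12) and 36.3, 45.8 and 55.2 CPM at 8 weeks (mean 45.9 ± 6.61, SD, n = 12). These groups overlapped throughout. The log2 fold change was -0.26 ± 0.12 (SE) from P6 to P15, 0.28 ± 0.12 from P15 to 8 weeks and 0.02 ± 0.12 from P6 to 8 weeks (limma TREAT, adjusted p = 1 for each). The sign of the last pair turned when libraries were scaled by their size alone, which gave -0.20 from P15 to 8 weeks and -0.29 from P6 to 8 weeks. Of all features, 25.7% were called in bulk cells between P6 and 8 weeks in either direction, 3.54% between P6 and P15 and 11% between P15 and 8 weeks.

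miR-455-5p was lower still in bulk cells. Its lowest, median and highest libraries held 9.47, 14.5 and 24.4 CPM at P6 (mean 16.1 ± 4.85, SD, n = 10), 7.25, 14.4 and 22.6 CPM at P15 (mean 14.6 ± 5.22, SD, n = 12) and 5.58, 7.36 and 15.3 CPM at 8 weeks (mean 8.24 ± 2.72, SD, n = 12). The 8-week libraries held only 24 to 64 counts of this arm. The ages overlapped, although the 8-week median lay below the lowest P6 library. The log2 fold change was -0.33 ± 0.17 (SE) from P6 to P15, -0.31 ± 0.19 from P15 to 8 weeks and -0.64 ± 0.18 from P6 to 8 weeks (limma TREAT, adjusted p = 1 for each). Tested against no change instead of a fold change threshold, the last of these had an adjusted p of 0.00175 in limma, where 66.2% of all features passed that test. By the same test miR-455-3p from P15 to 8 weeks had an adjusted p of 0.0442, where 50.7% of all features passed. With libraries scaled by their size alone, the change of miR-455-5p was larger, at -0.78 from P15 to 8 weeks and -0.97 from P6 to 8 weeks.

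**Figure D2:**
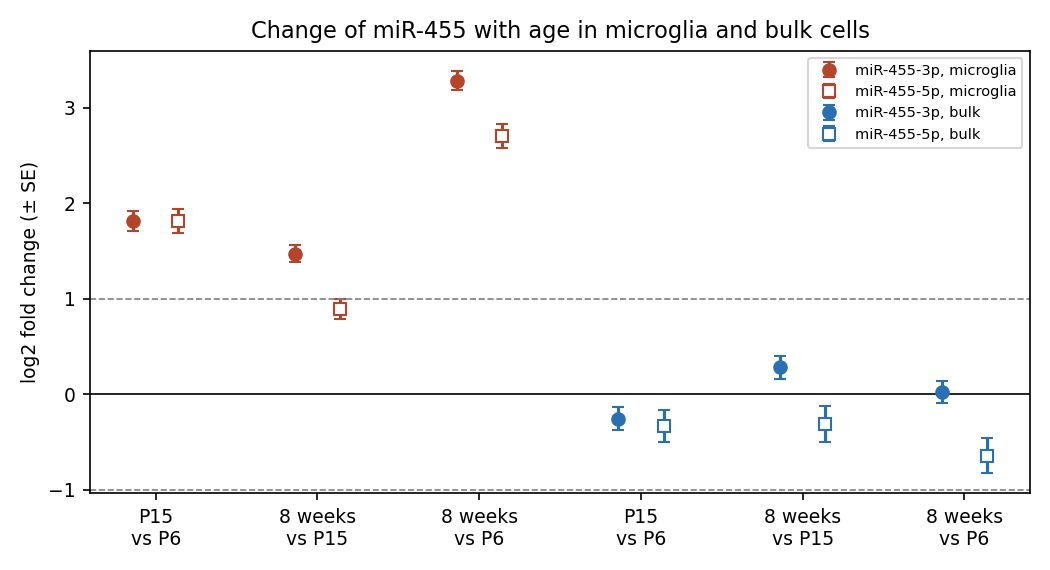
Log2 fold changes (points) with standard errors (bars) of miR-455-3p (filled circles) and miR-455-5p (open squares) between ages in microglia and bulk cells, with dashed lines at the threshold of 1 in either direction. Both arms lie at 1.81 between P6 and P15 in microglia and part between P15 and 8 weeks, at 1.47 and 0.89, while the bulk changes lie between -0.64 and 0.28.

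Both arms were already higher in microglia than in bulk cells at P6, before most of the rise. P6 microglia are the starting point of the rise that miR-455 was picked for, so this enrichment is a description too and carries no test. The log2 fold change at P6 was 1.91 ± 0.11 (SE) for miR-455-3p and 1.92 ± 0.15 (SE) for miR-455-5p. Each was higher in microglia in 10 of 10 mice, and the fractions did not overlap for either arm. Such enrichment was common, as 17.4% of all features were called higher in P6 microglia and 13.5% had no overlap in CPM. Within a mouse, the ratio of microglial to bulk CPM at P6 was 2.31 at the lowest, 4.49 at the median and 6.07 at the highest for miR-455-3p, and 2.41, 4.13 and 6.86 for miR-455-5p. The lowest ratio of each arm was that of P6 female mouse 2 and the highest that of P6 male mouse 5.

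At the later ages the distance between the fractions was larger. The ratio within a mouse was 9.30, 14.6 and 21.1 (lowest, median and highest) for miR-455-3p at P15 and 22.5, 34.4 and 50.0 at 8 weeks. For miR-455-5p it was 8.13, 13.5 and 27.0 at P15 and 21.6, 36.8 and 59.5 at 8 weeks. For miR-455-3p the ratios of the 3 ages did not overlap, which held with the same direction for 0.373% of all features, whereas for miR-455-5p the highest at P15 lay above the lowest at 8 weeks. On the fitted log2 scale, the enrichment of miR-455-3p was 3.98 ± 0.10 (SE) at P15 and 5.17 ± 0.10 at 8 weeks, and that of miR-455-5p was 4.07 ± 0.14 and 5.27 ± 0.15. The growth of the enrichment from P6 to 8 weeks came to 3.26 ± 0.15 for miR-455-3p and 3.34 ± 0.21 for miR-455-5p. In CPM, the order of the 6 mean levels was the same for both arms, from 8-week, P15 and P6 microglia down to P6, P15 and 8-week bulk cells. On the TMM-scaled fit the order of the bulk groups differed for miR-455-3p, whose fitted bulk level was highest at 8 weeks. Neighbouring bulk groups did not differ past the threshold for either arm. Nor did the untested values of miR-455-5p in P15 and 8-week microglia lie a log2 fold change of 1 apart.

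The bulk level relative to the microglial level was then set beside that of the listed myeloid miRNAs. Mean bulk CPM of miR-455-3p was 24.1%, 7.13% and 2.90% of the microglial mean at P6, P15 and 8 weeks, and for miR-455-5p these shares were 24.6%, 7.17% and 2.78%. For miR-142a-3p they were 0.753%, 1.47% and 1.44%, and for miR-223-3p, another miRNA of myeloid cells, 0.351%, 0.694% and 0.762%. At P6 the bulk share of miR-455 was thus well above that of both markers, and at 8 weeks it was still above both but by a smaller margin. For other members of the list the shares varied widely. For miR-342-3p they were 17.0%, 8.89% and 8.22%, falling with age as for miR-455, and for miR-146a-5p 2.62%, 2.30% and 0.936%. miR-155-5p (115%, 160% and 30.5%) and miR-150-5p (350%, 524% and 260%) were mostly higher in bulk cells. miR-223-5p, miR-511-3p and miR-511-5p stood at or below 2.06%.

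**Figure D3:**
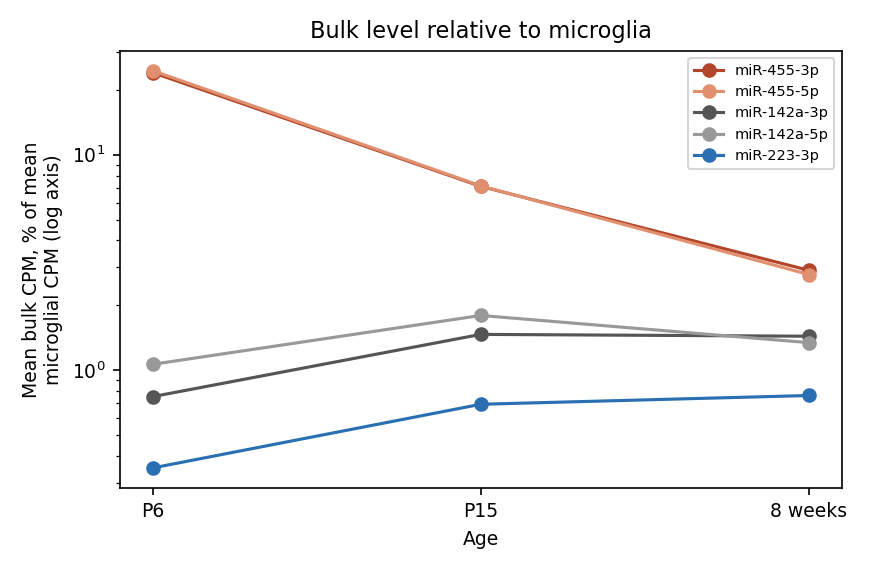
Mean bulk CPM as a percentage of mean microglial CPM (log axis) at each age for both arms of miR-455 and for 3 of the 10 listed myeloid miRNAs (miR-142a-3p, miR-142a-5p and miR-223-3p), 1 point per age and miRNA. Both arms of miR-455 fall from about 24.1% and 24.6% at P6 to 2.90% and 2.78% at 8 weeks, while these 3 stay at or below 1.79%.

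Some marker sums in the microglial fraction also moved with age. The summed CPM of the 10 listed myeloid miRNAs, all present in the table, ranged from 23550 to 52672 in P6 microglia, from 26846 to 65451 at P15 and from 41564 to 68999 at 8 weeks. That list includes miR-146a-5p and miR-342-3p, so its sum is not a count of cells. The summed CPM of miR-9-5p and miR-9-3p, miRNAs of astrocytes and neural progenitors, ranged from 82565 to 204911 in P6 microglia and from 33041 to 93902 at 8 weeks. In bulk cells this sum fell too, from a median of 298045 CPM at P6 to 85266 CPM at 8 weeks. A change within the cells of origin and a change in the make-up of the fraction were therefore not told apart. The 8 neuronal miRNAs summed to between 23240 and 46980 CPM at P6 and between 16391 and 55240 at 8 weeks. The 10 miRNAs of fibroblasts, mural cells and cartilage, listed because miR-455 is known from cartilage, had medians of 12583, 10810 and 12534 CPM in microglia at the 3 ages. Their sum was mostly miR-143-3p, and single members went both ways. miR-140-3p, a cartilage miRNA, averaged 575, 780 and 819 CPM, miR-145a-5p 973, 771 and 1404 CPM, and miR-199a-3p 640.4, 250.7 and 79.2 CPM at the 3 ages. Some members of this list were below a mean of 1 CPM in microglia, 2 at P6 and 3 at 8 weeks. These were miR-214-5p and miR-143-5p, with miR-214-3p added at 8 weeks.

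Lists of other cells moved in the microglial fraction as well. The 4 oligodendrocyte miRNAs summed to between 594 and 1137 CPM at P6, between 1203 and 3378 at P15 and between 1404 and 3259 at 8 weeks, so that P6 did not overlap with the later ages. The 5 erythroid miRNAs had medians of 15232, 45504 and 23979 CPM, highest at P15. The 6 miRNAs of multiciliated ependymal cells and choroid plexus had medians of 2616, 2789 and 4623 CPM, and the 2 endothelial ones of 2192, 2628 and 3417 CPM, with overlap between the ages. By their medians, the oligodendrocyte, multiciliated and endothelial lists were higher in bulk cells at each age, and the erythroid list was higher in microglia, as both arms of miR-455 were.

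The size of the microglial rise depended on the myeloid miRNA of the same library against which it was measured. Per 1000 reads of miR-142a-3p there were 16.7 ± 2.84 (SD, n = 10) reads of miR-455-3p at P6, which became 38.7 ± 10.8 (SD, n = 12) by P15 and 126.6 ± 16.6 (SD, n = 12) by 8 weeks. The lowest 8-week value, 105.9, lay above the highest P15 value, 60.7, and the lowest P15 value, 24.2, above the highest P6 value, 22.9. By this measure 0.466% of all features were higher at each step without overlap. Per 1000 reads of miR-142a-3p, miR-455-5p went from 4.67 ± 0.62 (SD, n = 10) to 10.6 ± 1.71 (SD, n = 12) and 23.6 ± 2.47 (SD, n = 12). Per 1000 reads of miR-223-3p, miR-455-3p went from 90.9 ± 15.4 (SD, n = 10) to 322 ± 36.8 (SD, n = 12) and 773 ± 175 (SD, n = 12). On the log2 scale the whole rise of miR-455-3p was 2.93 relative to miR-142a-3p, 2.18 relative to miR-142a-5p and 3.08 relative to miR-223-3p, choices made after the data were seen. Per 1000 reads of miR-142a-5p the ages overlapped, with up to 257.6 reads of miR-455-3p at P6 and down to 183.7 at P15.

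Relative to miR-146a-5p, a listed myeloid miRNA that itself increased from 5653 to 17337 and 30537 CPM, there was little or no rise. Per 1000 reads of miR-146a-5p there were 42.3 ± 6.73 (SD, n = 10) reads of miR-455-3p at P6, 43.6 ± 11.2 (SD, n = 12) in the P15 libraries and 53.7 ± 10.9 (SD, n = 12) in those of 8 weeks. For miR-455-5p there were 11.8 ± 1.74 (SD, n = 10), 12.1 ± 2.74 (SD, n = 12) and 10.1 ± 2.66 (SD, n = 12). The ages overlapped for both arms. On the log2 scale the change from P6 to 8 weeks was 0.33 for miR-455-3p and -0.25 for miR-455-5p.

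Relations within an age were computed over the microglial libraries for each arm and each of 8 marker lists, on log2 CPM. They were added after the data were seen. Of the 48, 12 passed an adjusted p of 0.05, and they involved the myeloid, miR-9, neuronal, erythroid and multiciliated lists. By rank as well, 9 passed. Those lost by rank were miR-455-3p with the myeloid list at P6 (permutation test, adjusted p = 0.0879 for rho), miR-455-5p with the miR-9 list at P6 (0.106) and miR-455-3p with the neuronal list at P15 (0.068). By rank alone, miR-455-3p passed at P15 with the myeloid list (permutation test, adjusted p = 0.0221 for rho) and the multiciliated list (0.0346). Across the 10 P6 mice, Pearson's r between miR-455-3p and the myeloid sum was 0.892 (Spearman's rho 0.721; permutation test, two-sided, raw p = 0.00181, adjusted p = 0.0119 over 48 relations). It was 0.678 without the 2 mice farthest from the median. Across the 12 mice at P15 and the 12 at 8 weeks r was 0.710 (permutation test, raw p = 0.0184, adjusted p = 0.0632) and 0.790 (raw p = 0.00251, adjusted p = 0.0119). Without those farthest mice r was 0.644 and 0.667, and rho over all mice was 0.846 and 0.755. With the miR-9 sum, r was -0.864 at P6 (rho -0.806, raw p = 0.00231, adjusted p = 0.0119), -0.853 at P15 (rho -0.783, raw p = 0.00025, adjusted p = 0.006) and -0.617 at 8 weeks (rho -0.469, raw p = 0.0302, adjusted p = 0.0907) by the same permutation test. Without the 2 farthest mice the last of these fell to -0.246 and rests on them, while those at P6 and P15 were -0.686 and -0.803. miR-455-5p had r of 0.905 with the myeloid sum at P6 (permutation test, adjusted p = 0.00864), 0.862 at P15 (adjusted p = 0.006) and 0.687 at 8 weeks (adjusted p = 0.0613). With the miR-9 sum its r was -0.793 at P6 and -0.786 at P15 (permutation test, adjusted p = 0.0119 for each), and -0.628 at 8 weeks (adjusted p = 0.0971), where it was 0.00135 without the 2 farthest mice. The multiciliated list gave r of -0.839 at P6 and -0.755 at P15 with miR-455-5p, the neuronal list -0.803 at P15 with miR-455-3p, and the erythroid list 0.840 at P6 with miR-455-5p (permutation test, adjusted p = 0.0119 for each). The last of these was 0.537 without the 2 farthest mice. With the neuronal list at 8 weeks, r of miR-455-3p was -0.118 over all mice and -0.817 without the 2 farthest. For miR-455-5p these values were -0.286 and -0.663. All sums share the library total with miR-455. The part that the make-up of the fraction has in the rise of miR-455 was not tested beyond the ratios to single myeloid miRNAs given above, which differed with the miRNA chosen.

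The ratio of the arms shifted towards miR-455-3p between P15 and 8 weeks. It is free of library scaling, since both arms are read in one library. In microglia there were 3.61 ± 0.60 (SD, n = 10) reads of miR-455-3p per read of miR-455-5p at P6. At P15 there were 3.62 ± 0.55 (SD, n = 12), and the 8-week libraries held 5.38 ± 0.50 (SD, n = 12). On the log2 scale the lowest, median and highest libraries were 1.55, 1.77 and 2.24 at P6, 1.44, 1.83 and 2.23 at P15 and 2.22, 2.42 and 2.69 at 8 weeks. The 8-week libraries thus barely touched the range of the younger ones. The mean difference was 0.58 ± 0.07 (SE) between P15 and 8 weeks and 0.01 ± 0.10 between P6 and P15. These microglial differences share their counts with the rise miR-455 was picked for, and no p is given for them.

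Bulk cells, whose age changes were not the rise that miR-455 was picked for, showed a shift of like size. Bulk libraries also held miR-142a-3p, at 1.44% of the microglial mean at 8 weeks, against 2.90% for miR-455-3p. How far CD45+ cells left in the bulk fraction shape its arm ratio was not tested, so this shift may not be independent of the microglial one. Their P6 libraries had a ratio of 3.72 ± 1.49 (SD, n = 10), those of P15 one of 3.96 ± 1.22 (SD, n = 12), and the 8-week libraries one of 5.92 ± 1.45 (SD, n = 12). On the log2 scale the lowest, median and highest bulk libraries were 1.10, 1.78 and 2.92 at P6, 1.05, 1.89 and 2.56 at P15 and 1.82, 2.54 and 3.17 at 8 weeks. These groups overlapped, with a wider spread than in microglia and fewer counts. The mean log2 ratio was higher at 8 weeks than at P15 by 0.60 ± 0.17 (SE, two-sided permutation test, adjusted p = 0.00385 over 10 comparisons of this ratio) and higher than at P6 by 0.70 ± 0.18 (SE, permutation test, adjusted p = 0.00353). Between P6 and P15 it differed by 0.10 ± 0.20 (SE, permutation test, adjusted p = 0.783). The share of the 3p arm among reads of both arms was 77.4%, 78.7% and 84.9% in bulk cells at the 3 ages, and 78.0%, 78.1% and 84.2% in microglia.

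Microglia and bulk cells of one brain had similar ratios, given here without a test. At P6 microglia were higher by 0.02 ± 0.14 (SE) and in 5 of 10 mice. The difference was -0.07 ± 0.14 (SE) at P15, with microglia higher in 5 of 12 mice, and -0.09 ± 0.09 at 8 weeks, with microglia higher in 4 of 12. A level that differed 34.4-fold between the fractions at 8 weeks therefore went with 3p shares of 84.2% and 84.9%.

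A shift towards the 3p arm of this size was not particular to miR-455. Of 105 precursors with at least 10 counts of both arms in every library, 61 moved towards the 3p arm between P15 and 8 weeks in microglia, with a median of 0.13 and quartiles of -0.21 and 0.39. In 11 of the 105, miR-455 included, the shift was at least that of miR-455. In bulk cells over the same interval the median was 0.22 and 19 of the 105 shifted by at least as much. A shift of the arm ratio therefore ran alongside both the rising microglial and the low bulk level of miR-455, in the upper part of the range of all precursors.

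**Figure D4:**
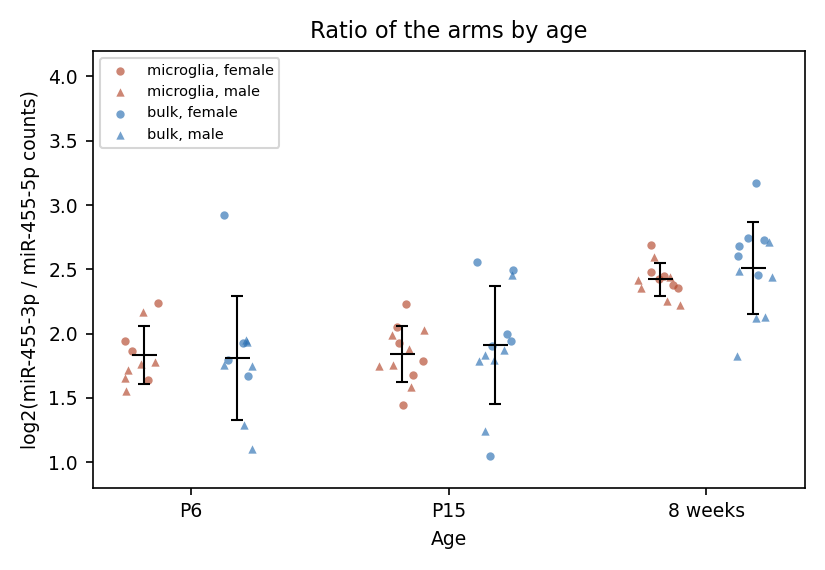
Log2 ratio of miR-455-3p to miR-455-5p counts at each age, 1 point per library, in microglia and bulk cells of female (circles) and male (triangles) mice, with the mean and SD as black bars. The means of both fractions lie between 1.81 and 1.91 at P6 and P15 and at 2.42 and 2.51 at 8 weeks.

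The covariation of the arms from mouse to mouse was then examined within each age. Pearson's r between their log2 CPM was 0.816 across 10 mice at P6 (Spearman's rho 0.709, two-sided permutation test, raw p = 0.00527, adjusted p = 0.0105 over 6 relations). It was 0.835 across 12 mice at P15 (rho 0.797, raw p = 0.00044, adjusted p = 0.00138) and 0.867 across 12 mice at 8 weeks (rho 0.706, raw p = 0.00046, adjusted p = 0.00138) by the same permutation test. Without the 2 mice farthest from the median, r was 0.566, 0.707 and 0.659. The P6 value rests in part on male mouse 5, without which the adjusted p was 0.0711 (permutation test, r = 0.717). It also missed the threshold on TMM-scaled values (r = 0.659, permutation test, adjusted p = 0.0705) and by rank (permutation test, adjusted p = 0.0546 for rho). In bulk cells of P6, P15 and 8-week mice r was 0.122, 0.546 and 0.512 (permutation tests, raw p = 0.734, 0.0659 and 0.0867, adjusted p = 0.734, 0.0989 and 0.104). The corresponding rho values were 0.297, 0.441 and 0.357, and r without the 2 farthest mice was 0.561, 0.384 and 0.662. Single mice moved these values, as r was 0.692 at P15 without female mouse 6 (permutation test, adjusted p = 0.025), 0.731 at 8 weeks without female mouse 1 (permutation test, adjusted p = 0.0137) and between -0.147 and 0.587 at P6 without each mouse in turn. Whether the correlation differs between the fractions was not tested. On TMM-scaled values the bulk r was 0.139, 0.118 and 0.304. The arms share the library total, and in bulk cells the counts of miR-455-5p were low.

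**Figure D5:**
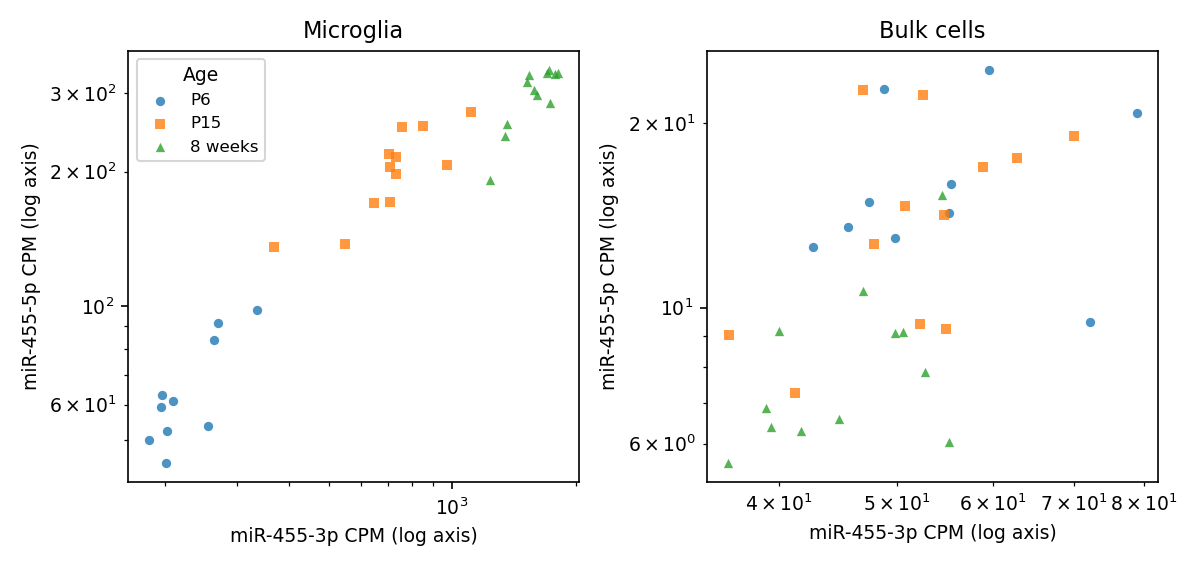
CPM of miR-455-5p against CPM of miR-455-3p on log axes in microglia (left) and bulk cells (right), 1 point per library, with the age given by colour and shape. Microglial libraries fall in 3 groups by age, with r within an age of 0.816 to 0.867, and bulk libraries of the 3 ages overlap, with r of 0.122 to 0.546.

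Neither arm differed between the sexes past the threshold in either fraction. In P6 microglia, miR-455-3p averaged 245 ± 54.5 CPM (SD, n = 6) in males and 209 ± 31.3 (SD, n = 4) in females. In P15 microglia the means were 787 ± 186 (SD, n = 6) and 684 ± 193 (SD, n = 6), and in 8-week microglia 1579 ± 135 (SD, n = 6) and 1582 ± 240 (SD, n = 6). The log2 differences (male minus female) were 0.13 ± 0.16 (SE), 0.15 ± 0.13 and -0.07 ± 0.12, all smaller than 2 SE. For miR-455-5p in microglia they were 0.26 ± 0.21 (SE), 0.17 ± 0.15 and 0.01 ± 0.14. Of the 12 comparisons of arm, age and fraction, 0 passed TREAT in limma (adjusted p = 1 for each), where 0% of all features were called, and 0 passed in edgeR or DESeq2. Without the fold change threshold 1 had an unadjusted p under 0.05, miR-455-3p in P6 bulk cells, with 50.3 ± 6.20 CPM (SD, n = 6) in males and 63.5 ± 14.6 (SD, n = 4) in females (log2 difference -0.38 ± 0.17, SE).

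The profile most like that of each arm across the 6 groups of fraction and age was that of the other arm. Likeness was measured as the root mean square difference of centred mean log2 CPM over the 6 groups, among 564 candidates, and came to 0.29 for the pair. The next were further away. For miR-455-3p they were miR-7219-3p (0.57), miR-342-3p (0.61), miR-181b-2-3p (0.62) and miR-146a-3p (0.70). For miR-455-5p they were miR-181b-2-3p (0.41), miR-342-3p (0.54), miR-339-3p (0.54) and miR-7219-3p (0.59). Among these, miR-342-3p was abundant, with 5098, 7718 and 8846 CPM in microglia and 868, 686 and 727 CPM in bulk cells, whereas miR-7219-3p reached only 20.9 CPM in 8-week microglia. miR-7219-3p (0.216 to 0.499 CPM) and miR-146a-3p (0.446 to 0.551 CPM) were at the floor in bulk cells, as was miR-181b-2-3p at 8 weeks (0.683 CPM), so the bulk side of their profiles and their distances are imprecise. Compared over the 3 microglial groups alone, the nearest to miR-455-3p were miR-29a-3p (0.08) and miR-10a-5p (0.09), both closer than miR-455-5p (0.28). The nearest to miR-455-5p over those groups were miR-204-3p, miR-146a-5p and miR-204-5p (0.12, 0.12 and 0.13), and miR-455-3p was not among its 6 nearest. The bulk level of miR-29a-3p parted from that of miR-455-3p, as it went from 511 to 16217 CPM in bulk cells between P6 and 8 weeks.

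P6 female mouse 6 was left out of all values above. Its microglial library held 111 CPM of miR-455-3p and 32.5 CPM of miR-455-5p, below every other P6 microglial library, while its bulk library, with 48.2 and 15.3 CPM, lay within the range of the others. With this mouse included, the P6 enrichment was 1.87 for miR-455-3p and 1.84 for miR-455-5p on the log2 scale, and the microglial change from P6 to 8 weeks was 3.37 and 2.78 on the log2 scale. The sex difference in P6 microglia (male minus female) was then larger, at 0.31 ± 0.16 (SE) for miR-455-3p and 0.43 ± 0.20 for miR-455-5p. Neither passed the threshold.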

How the data were processed

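According to the methods of the study, the authors isolated total RNA, sequenced small RNA libraries (MGISEQ2000, single end), removed adapters and short reads with fastp 0.20.0, and matched reads to miRBase with miRDeep2 on the mouse genome GRCm38. The deposited values are raw counts, in whole numbers, of the reads matched to each miRNA. It had 2029 entries under 1885 names. The entry with the largest total was kept for each name, and 3 duplicated candidates were dropped, leaving 1882 features. Groups came from the sample titles.

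P6 female mouse 6 (2 libraries) was set aside. The study removed 1 mouse as an outlier without naming it in its text, so this identity, inferred from its listed libraries, is uncertain. The 1072 features that reached 1 CPM in 5 or more libraries were scaled by TMM (edgeR 4.0.16) and fitted in R 4.3.3 by limma-voom, limma being at version 3.58.1, with 12 group means and mouse as a random effect. Contrasts were averaged over the sexes and tested with TREAT at a log2 threshold of 1 and a Benjamini-Hochberg FDR of 0.05. Both fractions of a mouse came from one brain, which pairs the libraries. Their deviations from group means correlated by 0.0739 on average, against -0.0154 between different mice, and the consensus correlation was 0.124. Chi-square per degree of freedom was at least 26.9 between any 2 libraries of a group, and no library was merged with another.

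The log2 arm ratio used a pseudocount of 0.5 and permutation tests (two-sided, 100000 resamples, fractions exchanged within mice), with Python 3.11.15 and scipy 1.17.1. Standard errors come from the spread between libraries, whereas the floor of 3 counts covers counting error only. Scripts were tested on simulated data. Alternatives were edgeR's quasi-likelihood test, DESeq2 1.42.0, other scalings, filters, blocks and pseudocounts, and leaving out each mouse. Named miRNAs were both arms, the nearest profiles (at least 10 CPM in 1 of 6 groups), fixed marker lists and miRNAs sharing a seed. The members and lists were chosen with earlier results of these data known.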

Additional observations from a re-analysis of the deposited data

Results flagged for a closer look

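In the group of 6 male P6 microglial libraries, mouse 3 stood apart in the log2 ratio of miR-455-3p to miR-455-5p, at 2.17, where the others lay between 1.55 and 1.78. Its gap to the nearest of the others exceeded Dixon's critical value. This was 1 such value among 36 groups examined, where chance gives about 1.8.

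The change from P6 to 8 weeks differed between microglia and bulk cells, by a log2 value of 3.26 (miR-455-3p) and 3.34 (miR-455-5p). miR-455 was picked for its rise in microglia, so these differences are described and carry no test here.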

How the results depend on the processing

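Over 50 results and 1891 alternatives, 1833 kept their direction, their side of the threshold and, where untested, their value within the spread between replicates. The P6 enrichment of both arms kept its direction under every alternative tried, its lowest log2 values being 1.84 (miR-455-3p) and 1.80 (miR-455-5p). With mouse as a fixed replicate block it was 1.91 and 1.90, and with no replicate block 1.91 and 1.92. Among results given with a test, the block changed no call.

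Apart from leaving out mice, scaling and the reference moved several values. Library size alone shifted the median of all features between P6 and 8 weeks in microglia from -0.17 to -0.64, and the changes of miR-455-3p and miR-455-5p were then 2.82 and 2.24. Relative to these medians they were 3.46 and 2.87 with TMM and 3.46 and 2.88 with library size. Relative to miR-142a-3p, the change of miR-455-3p was 1.18 from P6 to P15 and 2.93 to 8 weeks, and that of miR-455-5p from P6 to P15 was 1.18. Relative to miR-142a-5p these were 0.949 and 2.18 for miR-455-3p and 0.942 and 1.59 for miR-455-5p. Relative to miR-146a-5p, miR-455-3p changed by 0.0123 from P6 to P15, 0.322 from P15 to 8 weeks and 0.334 over both, and miR-455-5p by 0.00553, -0.258 and -0.253. In bulk cells miR-455-3p between P15 and 8 weeks was 0.280 without a fold change threshold (limma, adjusted p = 0.0442) and -0.195 with library size alone. Between P6 and 8 weeks it was -0.295 with library size alone, -0.0317 with the Wald test of DESeq2, -0.0238 with its size factors and -0.103 with the entries of a name summed. miR-455-5p over this interval was -0.641 without a fold change threshold (limma, adjusted p = 0.00175) and -0.971 with library size alone. The sex difference in 8-week microglia was 0.00992 for miR-455-3p with library size alone and -0.00238 for miR-455-5p with edgeR. The difference in arm ratio between fractions was -0.0113 at P6 by medians, and with a pseudocount of 5 it was 0.00721 at P15, 0.0455 at 8 weeks and 0.00578 for the age change. The correlation of the arms in P6 microglia was 0.659 on TMM-scaled values (permutation test, adjusted p = 0.0705). Causes were not tested.

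Leaving out single mice turned the sign only of small values. The ranges were -0.00222 to 0.105 for the bulk change of miR-455-3p between P6 and 8 weeks, -0.0829 to 0.00515 for its sex difference in 8-week bulk cells, and, for the sex difference of miR-455-5p, -0.0974 to 0.0784 in 8-week microglia and -0.125 to 0.237 in P6 bulk cells. They were -0.0266 to 0.0540 for the arm ratio between P6 and P15 in microglia and -0.0239 to 0.135 between fractions at P6. The correlation of the arms ranged from 0.717 to 0.902 in P6 microglia, -0.147 to 0.587 in P6 bulk cells, 0.430 to 0.692 in P15 bulk cells and 0.362 to 0.731 in 8-week bulk cells. It passed in bulk cells without P15 female mouse 6 (0.692, permutation test, adjusted p = 0.025) and without 8-week female mouse 1 (0.731, permutation test, adjusted p = 0.0137), and no longer passed in P6 microglia without male mouse 5. Bulk counts of miR-455-5p, 24 to 64 per library at 8 weeks, limit the precision of its ratio there.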
